A study of Mus musculus with 4 samples.

Results

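The Wnt ligands described here are 9 genes grouped as ligands of the gastrulating epiblast, *Wnt2b*, *Wnt3*, *Wnt3a*, *Wnt4*, *Wnt5a*, *Wnt5b*, *Wnt6*, *Wnt8a* and *Wnt11*, chosen by name, and all 9 were found among the 24347 gene rows of each sample. They were measured by RNA-seq in embryoid bodies (EBs), the floating aggregates that mouse embryonic stem cells (mESCs) form and differentiate in once the self-renewal factor LIF is withdrawn from serum medium, harvested at day 3. WT EBs (WT 1 and WT 2) were compared with EBs from mESCs in which the promoter of *Gm11549*, the gene that encodes NEMEP, was removed by CRISPR/Cas9 editing (promoter KO 1 and promoter KO 2). All 4 samples are of strain 129/Ola, received no other treatment and are labelled as ES-derived mesendoderm cells. The promoter KO cells were grown from single sorted cells, and whether the 2 promoter KO samples are separate clones is not given in the sources used here.

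Wnt proteins are secreted, lipid-modified ligands that bind Frizzled receptors. With the Lrp5 or Lrp6 co-receptor they stabilise beta-catenin, which acts with TCF/LEF factors on target genes, and other Wnt proteins act mainly through beta-catenin-independent routes such as planar cell polarity. In the mouse embryo, Wnt signals of the posterior epiblast are needed for the primitive streak, from which mesoderm and endoderm arise.

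The values are FPKM, fragments scaled to transcript length and to the number of mapped fragments, so levels can be compared between genes. The targeted gene was under 1 FPKM in all 4 samples, so it was not tested, and it was lower in both promoter KO samples. *Gm11549* was at 0.750 (WT 1) and 0.522 FPKM (WT 2), against 0 (promoter KO 1) and 0.0659 FPKM (promoter KO 2). The depth was estimated from the lowest FPKM values of genes with 1 annotated transcript, which lie near whole multiples of what 1 fragment is worth. With fragments taken to be 250 bases long, this gave 25300000 (WT 1) and 22500000 fragments (WT 2), against 22200000 (promoter KO 1) and 20400000 fragments (promoter KO 2).

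The mesendoderm label was checked against 8 marker genes. Their summed level was 777 (WT 1) and 1002 FPKM (WT 2), against 148 (promoter KO 1) and 314 FPKM (promoter KO 2), and none was at 0 in all samples. By the mean over the 4 samples, as for every list, the most abundant was *T*, with *Eomes* above it in promoter KO 1. All 8 had both promoter KO values below both WT values, as did 32.4% of all tested genes, and 5 were called lower by limma (adjusted p under 0.05), as were 1.89% of all tested genes. Without WT 2, or without promoter KO 1, limma called 0 genes in all, with 1821 and 1942 genes at an unadjusted p under 0.05. Mesendoderm markers were therefore present in both genotypes, with lower values in promoter KO. In bulk samples, fewer cells of a type and less RNA per cell cannot be told apart.

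The WT samples differed from each other in these ligands. In 7 of the 9 the value in WT 2 was above that in WT 1, by a ratio of 11.6 for *Wnt5a*, 3.80 for *Wnt2b*, 3.13 for *Wnt6* and 2.86 for *Wnt3a*. Among the 7, *Wnt2b*, *Wnt3a* and *Wnt4* were not tested. Over tested genes alone 49.1% were higher in WT 2, whereas the counts by list here include genes not tested. On the log2(FPKM + 1) scale, a gap between the WT samples as large as that of *Wnt5a* occurred in 0.0670% of tested genes. Other genes of the pathway divided, with 11 of 14 response genes, 10 of 15 antagonists, 4 of 4 secretion genes in the files and 5 of 9 in the R-spondin module higher in WT 2, but 8 of 18 transducers, 5 of 16 receptors and 3 of 10 planar polarity genes. Of the cell type markers, 7 of 7 for trophoblast, 6 of 6 haematopoietic and endothelial, 6 of 8 mesendoderm, 8 of 11 parietal endoderm and 6 of 9 pluripotent cell genes were higher in WT 2, against 6 of 13 for primitive and visceral endoderm and 3 of 6 for neuroectoderm. The part of these cell types in the gap between the WT samples was not tested. The difference of each ligand is therefore also given without WT 2.

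By their mean, day 3 WT EBs expressed mainly *Wnt8a*, *Wnt3*, *Wnt5b* and *Wnt11*. These 4 were above 1 FPKM in every sample, whereas *Wnt5a*, *Wnt2b*, *Wnt3a*, *Wnt4* and *Wnt6* reached 1 FPKM only in some samples. In WT 2, *Wnt5a* at 6.72 FPKM was above *Wnt11* at 5.67 FPKM. The summed level of the 9 ligands was 86.6 (WT 1) and 97.4 FPKM (WT 2), against 57.8 (promoter KO 1) and 58.4 FPKM (promoter KO 2). *Wnt8a* made up 55.0% (WT 1) and 37.5% (WT 2) of that sum, against 63.8% (promoter KO 1) and 57.9% (promoter KO 2).

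**Figure D1:**
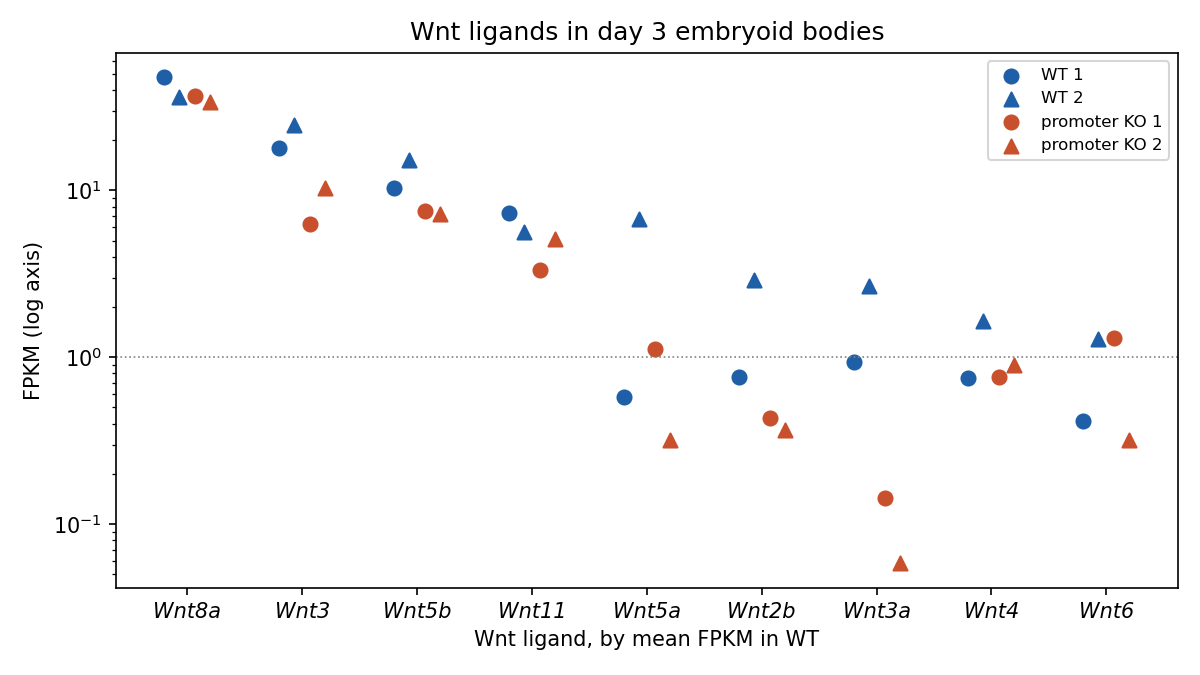
FPKM of the 9 Wnt ligands in each of the 4 samples on a log axis, ordered by mean FPKM in WT, with circles for replicate 1, triangles for replicate 2, blue for WT and orange for promoter KO. The dotted line marks 1 FPKM, and *Wnt8a*, *Wnt3*, *Wnt5b* and *Wnt11* lie above it in all 4 samples.

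By mean FPKM in WT the order was *Wnt8a*, *Wnt3*, *Wnt5b*, *Wnt11*, *Wnt5a*, *Wnt2b*, *Wnt3a*, *Wnt4* and *Wnt6*. The ranges of the WT samples did not overlap between neighbours from *Wnt8a* down to *Wnt11*. From *Wnt11* to *Wnt6* each neighbouring pair overlapped, so that order is within the spread of the WT samples. In promoter KO the first 4 had the same order, the ranges of *Wnt3* and *Wnt5b* overlapped, and *Wnt3a* had the lowest mean.

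The comparison of promoter KO with WT asks which ligands differ once the *Gm11549* promoter is deleted. *Wnt3*, *Wnt5b* and *Wnt11* had lower values in both promoter KO samples than in both WT samples, and so had *Wnt3a* and *Wnt2b* at low levels, but no ligand passed the test. Genes that reached 1 FPKM in 2 or more samples were tested with limma on log2(FPKM + 1), a scale that understates the change of low genes, and p-values were adjusted over all 11941 tested genes. Of the 9 ligands 6 were tested and 0 had an adjusted p under 0.05, where 427 of all tested genes (3.58%) did, 226 (1.89%) of them lower. At an unadjusted p under 0.05, 3 of the 6 were lower, where 15.6% of all tested genes were. The highest of these 3 p-values was that of *Wnt11* (limma, unadjusted p = 0.0482). In limma it was 0.0490 with a pseudocount of 0.1. It was 0.0514 to 0.0881 with a replicate block, other filters, no variance trend, median centring or quantile normalization. The study marked genes at a fold beyond 2 with p under 0.05. With limma's unadjusted p and the fold taken on log2(FPKM + 1), only *Wnt3* of the 6 was lower, where 1.63% of all tested genes were. Both promoter KO values lay below both WT values in 3 of the 6, where 32.4% of all tested genes did so. An exact permutation test of 2 samples against 2 cannot give a two-sided p below 0.333.

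**Figure D2:**
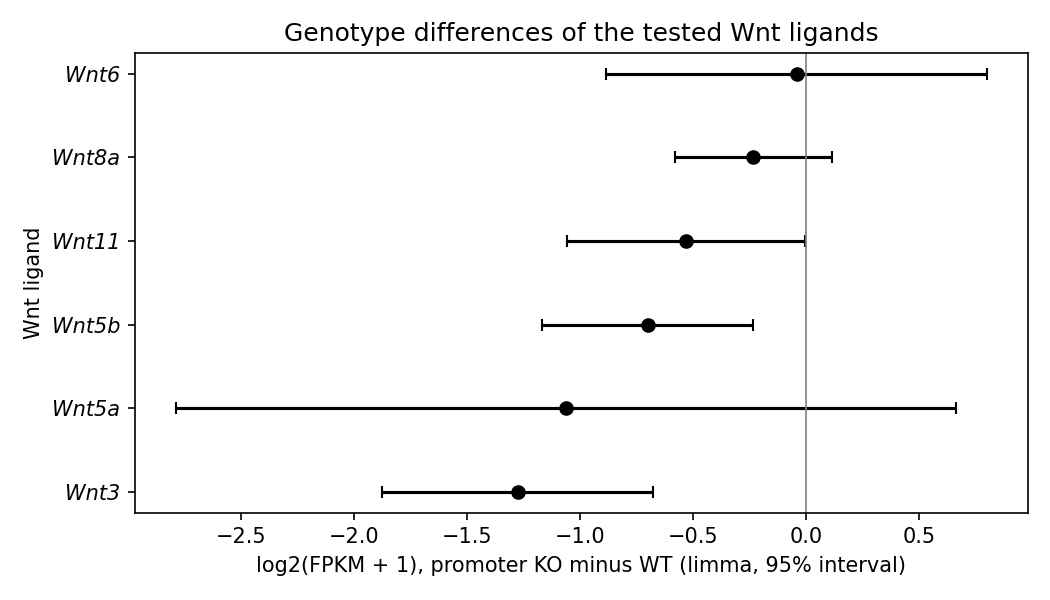
Difference of mean log2(FPKM + 1), promoter KO minus WT, for the 6 tested ligands, with 95% intervals from limma and 2 samples per genotype. The intervals of *Wnt3* and *Wnt5b* lie well below 0, that of *Wnt11* ends at -0.0058, and none of the 6 passed after adjustment over all tested genes.

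*Wnt3* is the ligand that the mouse embryo needs to form the primitive streak. It was at 17.9 (WT 1) and 24.7 FPKM (WT 2), against 6.32 (promoter KO 1) and 10.3 FPKM (promoter KO 2). Both promoter KO values were below both WT values. The mean was 21.3 ± 4.82 FPKM (SD, n = 2) in WT and 8.30 ± 2.80 (SD, n = 2) in promoter KO, 39.0% of WT. On the log2(FPKM + 1) scale the difference was -1.28 with an SE of 0.245, and limma's adjusted p was 0.0511. This difference just missed the threshold. Without promoter KO 2 it was -1.59 (limma, adjusted p = 0.0356), and without WT 2 it was -1.05 (limma, adjusted p = 0.245), the lowest and the highest adjusted p with each sample left out in turn, where the genotype left with 1 sample is taken to vary like the other.

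The promoters of *Wnt3*, the tested ligand with the lowest adjusted p, and *Wnt3a*, the ligand with the lowest share of its WT level, are shown as examples. *Wnt3* lies on chromosome 11 (GRCm38, chr11:103774150-103817957, plus strand) and *Wnt3a* on the same chromosome (chr11:59248033-59290752, minus strand), each with 1 transcript in GENCODE M21. RefSeq promoter windows of 300 bases (GRCm38.p6) were searched on both strands for CTTTGA (TCF/LEF), CAGAC (SMAD), AATNCACA (FOXH1) and AGGTGTGA (T-box). Capitals mark the matches, which did not overlap. The *Wnt3* window (chr11:103773925-103774224, plus strand) held CAGAC at bases 116 to 120, and the *Wnt3a* window (chr11:59290702-59291001, minus strand) held none of the 4.
Wnt3: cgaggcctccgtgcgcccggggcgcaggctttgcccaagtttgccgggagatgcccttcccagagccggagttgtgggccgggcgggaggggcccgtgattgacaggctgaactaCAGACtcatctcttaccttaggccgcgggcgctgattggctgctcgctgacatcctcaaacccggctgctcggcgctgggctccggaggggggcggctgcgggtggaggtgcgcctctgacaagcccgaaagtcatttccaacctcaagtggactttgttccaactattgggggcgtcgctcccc
Wnt3a: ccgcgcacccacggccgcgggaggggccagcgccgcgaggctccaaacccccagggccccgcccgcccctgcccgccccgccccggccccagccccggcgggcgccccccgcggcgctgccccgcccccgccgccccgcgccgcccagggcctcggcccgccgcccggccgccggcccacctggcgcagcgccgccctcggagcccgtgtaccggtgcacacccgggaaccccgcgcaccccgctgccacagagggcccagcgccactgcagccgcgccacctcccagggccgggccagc
Of 32851 RefSeq promoters of this length, 49.6% held CAGAC, 16.0% CTTTGA, 3.60% AATNCACA and 1.27% AGGTGTGA. RefSeq windows were found for 7 of the 9 ligands and not for *Wnt5a* and *Wnt8a*. Of 3 windows of *Wnt5b*, 1 held CAGAC, 1 held CAGAC and CTTTGA and 1 held none of the 4 motifs, and of 2 windows of *Wnt11*, 1 held CTTTGA and 1 held CAGAC. The windows of *Wnt2b*, *Wnt4* and *Wnt6* held none.

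*Wnt3a*, which is known for its role in paraxial mesoderm and the tail bud, was below the filter and so not among the 6 tested ligands. It was at 0.933 (WT 1) and 2.67 FPKM (WT 2), against 0.144 (promoter KO 1) and 0.0582 FPKM (promoter KO 2). All values were low, and the promoter KO values were below those of WT. They correspond to about 59 fragments in WT 1 (95% exact Poisson interval 44.9 to 76.1), 151 in WT 2 (127.9 to 177.1), 8 in promoter KO 1 (3.5 to 15.8) and 3 in promoter KO 2 (0.6 to 8.8). Per fragment sequenced, promoter KO had 5.88% of the WT value (95% exact interval 2.89% to 10.7%). Against WT 1 alone it was 11.1% (5.24% to 21.3%) and against WT 2 alone 3.85% (1.88% to 7.08%), a comparison chosen after the data were seen. These intervals cover counting error only, not the spread between samples. On the log2(FPKM + 1) scale the difference was -1.27, and without WT 2 it was -0.81. When every gene above 0 FPKM was tested, the unadjusted p of *Wnt3a* was 0.0160 and limma's adjusted p 0.158.

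*Wnt8a*, a ligand of the posterior epiblast and streak, was the most abundant of the 9. It was at 47.6 (WT 1) and 36.5 FPKM (WT 2), against 36.9 (promoter KO 1) and 33.8 FPKM (promoter KO 2). The value in promoter KO 1 was above that in WT 2, so the genotypes overlapped. The log2 difference was -0.23 with an SE of 0.142 and a 95% interval from -0.58 to 0.11 (limma, adjusted p = 0.305). It was -0.046 without WT 1 and -0.42 without WT 2. Among tested genes other than Wnt ligands, the profiles over the 4 samples nearest to that of *Wnt8a*, each centred on its mean, were those of *Rps6ka5*, *Nanp* and *Pla2g16*, at Euclidean distances of 0.0255, 0.0495 and 0.0505 on the log2 scale.

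*Wnt5b* and *Wnt11* are ligands known mainly for beta-catenin-independent signalling and cell movement. *Wnt5b* was at 10.3 (WT 1) and 15.3 FPKM (WT 2), against 7.48 (promoter KO 1) and 7.21 FPKM (promoter KO 2). The log2 difference was -0.70 with an SE of 0.191 (limma, adjusted p = 0.0801), and without WT 2 it was -0.44. *Wnt11* was at 7.33 (WT 1) and 5.67 FPKM (WT 2), against 3.32 (promoter KO 1) and 5.14 FPKM (promoter KO 2). Promoter KO 2 lay close below WT 2, and the log2 difference was -0.53 with an SE of 0.215 (limma, adjusted p = 0.161). The difference of *Wnt11* was -0.69 without WT 2 and -0.28 without promoter KO 1. The genotypes did not overlap for either ligand, and neither passed the test.

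*Wnt5a*, which acts in the elongation of the body axis, was high in WT 2 alone. It was at 0.580 (WT 1) and 6.72 FPKM (WT 2), against 1.11 (promoter KO 1) and 0.321 FPKM (promoter KO 2). The log2 difference was -1.06 with an SE of 0.705 (limma, adjusted p = 0.342), and without WT 2 it was 0.081, with no test. Its direction therefore rests on WT 2.

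*Wnt2b*, *Wnt4* and *Wnt6* were low. *Wnt2b* was at 0.762 (WT 1) and 2.90 FPKM (WT 2), against 0.434 (promoter KO 1) and 0.365 FPKM (promoter KO 2), below the filter and without overlap. Its log2 difference of -0.90 was -0.33 without WT 2 and -1.48 without WT 1. *Wnt4*, also below the filter, ranged from 0.753 to 1.66 FPKM, and promoter KO 1 and promoter KO 2 lay between the WT samples. *Wnt6* was at 0.412 (WT 1) and 1.29 FPKM (WT 2), against 1.31 (promoter KO 1) and 0.321 FPKM (promoter KO 2), with a log2 difference of -0.042 (limma, adjusted p = 0.946). Without WT 2 the log2 differences were 0.058 for *Wnt4*, against -0.24 with it, and 0.31 for *Wnt6*, both in the opposite direction. When every gene above 0 FPKM was tested, limma's adjusted p was 0.278 for *Wnt2b* and 0.567 for *Wnt4*.

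**Figure D3:**
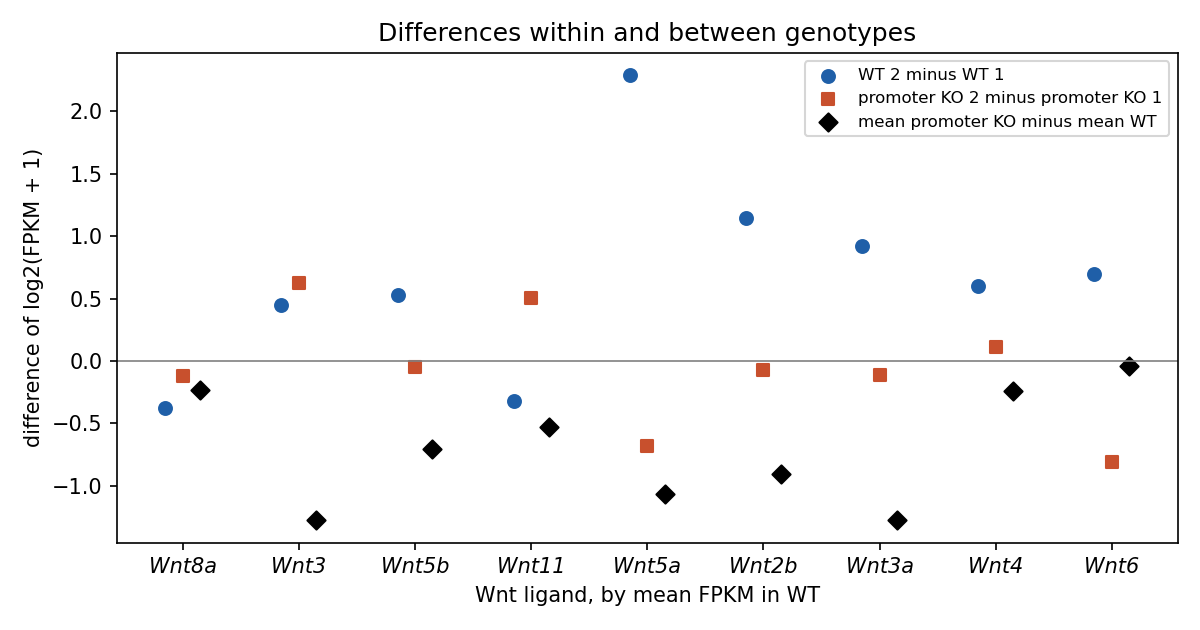
Differences of log2(FPKM + 1) for each ligand, with blue circles for WT 2 minus WT 1, orange squares for promoter KO 2 minus promoter KO 1 and black diamonds for the mean of promoter KO minus the mean of WT. For *Wnt5a* the gap of 2.29 between the WT samples exceeds the genotype difference of -1.06 in size, whereas for *Wnt3* the gap of 0.45 is smaller than the difference of -1.28.

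Reads shared between ligands or with overlapping genes could affect these values. The longest exact run shared by transcripts of any pair of the 9 was 29 bases, for *Wnt5a* and *Wnt5b*, and it was 21 bases for *Wnt3* and *Wnt3a*. The antisense gene *Gm2670* shares 358 exon bases with *Wnt5a* (4.58% of its exon bases), and the pseudogene *Gm8398* on the opposite strand shares 364 with *Wnt11* (8.80%). The strand setting is not given in the sources used here, so reads in those parts cannot be assigned to a strand.

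Of the other 10 mouse Wnt ligands, only *Wnt9a* averaged 1 FPKM or more in either genotype. It was at 1.62 (WT 1) and 1.34 FPKM (WT 2), against 1.26 (promoter KO 1) and 1.30 FPKM (promoter KO 2), with a log2 difference of -0.12 (limma, adjusted p = 0.629). Of these 10, 3 had both promoter KO values below both WT values and 4 had both above. Over the 11941 tested genes, 3866 were below and 3933 above in that way. Only *Wnt9a* of the 10 was tested, and 8 stayed under 1 FPKM in every sample. The ligands measured in these EBs were thus mainly those of the 9.

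The other genes of the pathway were described by lists, beside a median log2 difference of 0.0042 over all tested genes. For secretion, 3 of 5 genes were tested, 0 were called and the median was -0.34. Its most abundant gene, *Wls*, which carries Wnt proteins to the cell surface, was at 16.8 (WT 1) and 22.3 FPKM (WT 2), against 8.05 (promoter KO 1) and 16.0 FPKM (promoter KO 2), with *Porcn* above it in promoter KO 1. Of 16 receptor genes all were tested and 0 were called, with a median of -0.14, and the most abundant was the co-receptor *Ptk7*. In the module of R-spondins, their Lgr receptors and the ubiquitin ligases that remove Frizzled, 5 of 9 were tested and 0 called, with a median of -0.16, and *Lgr4* was the most abundant, with *Rspo3* above it in WT 2. Of 18 intracellular transducers all were tested and 0 were called, with a median of -0.12, and *Ctnnb1*, which encodes beta-catenin, was the most abundant. Of 10 planar polarity genes 8 were tested and 0 called, with a median of -0.10, and *Scrib* was the most abundant. At an unadjusted p under 0.05 in limma, the lower and higher genes numbered 0 and 0 in secretion, 5 and 2 among receptors, 2 and 1 in the R-spondin module, 3 and 1 among transducers, and 2 and 0 in planar polarity. Over all tested genes 15.6% were lower and 15.0% higher at that threshold. *Rnf43* and *Pygo1*, lower at it, passed the filter only through WT, and were named after their values were seen.

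Calls were made among secreted antagonists and response genes, where 1.89% of all tested genes were called lower and 1.68% higher. Of 15 genes listed as antagonists 11 were tested and 3 fell, *Frzb*, *Cer1* and *Dkk1*, and the median of the list was -0.13. At an unadjusted p under 0.05, 4 antagonists were lower and 0 higher. The differences of 5 tested antagonists were above 0, among them that of the most abundant, *Sfrp2*, at 0.089 (limma, adjusted p = 0.562). *Frzb*, which binds Wnt proteins, was at 11.6 (WT 1) and 25.2 FPKM (WT 2), against 1.10 (promoter KO 1) and 2.47 FPKM (promoter KO 2), a log2 difference of -2.75 (limma, adjusted p = 0.0377). *Cer1* had a log2 difference of -1.80 (limma, adjusted p = 0.0233). It is in the list by name, and whether its product acts on Wnt proteins was not tested here. Of 14 response genes 12 were tested and 3 fell, *Sp5*, *Nkd1* and *Dact1*, and the median was -0.75. The list shares *T*, its most abundant gene, with the mesendoderm markers and *Cdx2* with the trophoblast markers. Their log2 differences were -2.19 and -1.49 (limma, adjusted p = 0.0509 and 0.177). At an unadjusted p under 0.05, 6 response genes were lower and 2 higher. These 2, *Myc* and *Ccnd1*, had log2 differences of 0.42 and 0.34 (limma, adjusted p = 0.0981 and 0.0779), and *Axin2*, a widely used readout of beta-catenin activity, had -0.13 (limma, adjusted p = 0.714) with overlapping genotypes. *Sp5*, a direct target of beta-catenin, was at 193 (WT 1) and 222 FPKM (WT 2), against 32.7 (promoter KO 1) and 75.7 FPKM (promoter KO 2), a log2 difference of -2.03 (limma, adjusted p = 0.0467). *Tbx6*, a response gene lower at an unadjusted p under 0.05, passed the filter only through WT. *Dkk1*, *Dact1*, *Sfrp2*, *T*, *Cdx2*, *Myc*, *Ccnd1*, *Axin2* and *Tbx6* were named after their values were seen. None of the 6 called genes was called without WT 2 or without promoter KO 1.

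**Figure D4:**
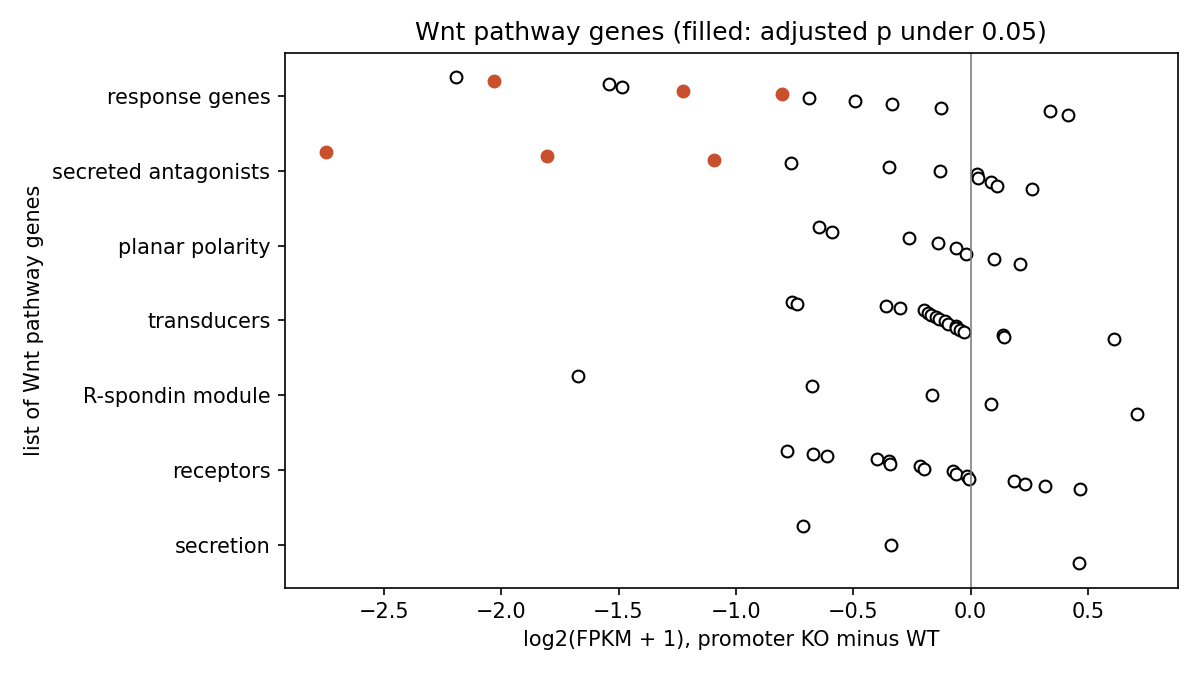
Difference of mean log2(FPKM + 1), promoter KO minus WT, of each tested gene in the 7 pathway lists, with filled orange points for an adjusted p under 0.05 in limma. The 6 filled points, all below 0, are in the lists of secreted antagonists and response genes.

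Markers of other cell types moved with genotype as well, where 1.68% of all tested genes were called higher and 1.89% lower, and 15.0% and 15.6% were so at an unadjusted p under 0.05. Of 13 primitive and visceral endoderm markers 6 were called higher and 1 lower (8 and 3 at an unadjusted p under 0.05), with sums of 699 (WT 1) and 707 FPKM (WT 2), against 961 (promoter KO 1) and 1051 FPKM (promoter KO 2), most of it *Apoe*. Of 11 parietal endoderm markers 10 were tested and 6 were called higher and 1 lower (8 and 1 unadjusted), with sums of 270.0, 274, 362 and 452 FPKM in the same order. The most abundant was *Fst*, the marker called lower, averaging 127 (WT) and 67.4 FPKM (promoter KO), whereas in both promoter KO samples *Sparc*, called higher, was the most abundant. Of 9 markers of pluripotent cells 0 were called (limma; 1 lower and 4 higher at an unadjusted p under 0.05), with sums of 1863, 1564, 2062 and 1957 FPKM, most of it *Pou5f1*. Of 7 trophoblast markers 5 were tested and 1 was called lower (3 lower and 0 higher unadjusted), with sums of 186, 227, 65.8 and 109 FPKM, most of it *Eomes*, which the mesendoderm list also holds. Of 6 neuroectoderm markers 2 were tested and 0 called (limma; 1 lower and 0 higher unadjusted), with sums of 93.9, 87.0, 76.9 and 81.8 FPKM, most of it *Otx2*. Of 6 haematopoietic and endothelial markers 2 were tested and 0 called (limma; 1 lower and 1 higher unadjusted), with sums of 4.59, 16.1, 7.73 and 5.61 FPKM, and *Pecam1* was the most abundant, but in WT 2 *Kdr* was, at 11.3 FPKM. Some of these genes passed the filter of 1 FPKM in 2 samples only through the genotype where they were high. These were *Sox7* and *Cubn*, called higher, and *Plat*, higher at an unadjusted p under 0.05, all through promoter KO. *Kdr*, lower at that threshold, passed through WT. *Sox7*, *Cubn* and *Plat* were named after their values were seen. The part of these cell types in the ligand values was not tested.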

How the data were processed

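RNA-seq of 4 samples was used, 2 WT and 2 promoter KO, grouped by the sample labels. The authors deposited FPKM values, 1 file per sample. The submitters' processing notes name HISAT2 2.1.0, Cufflinks, Cuffnorm and mm10, whereas the methods name TopHat and Cufflinks with GENCODE M4 and call the unit RPKM, so the aligner is uncertain and a scaling across samples may have been applied. The replicates are described as biological, and p-values measure only the spread between these samples.

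From these values log2(FPKM + 1) was tested for genotype with limma 3.58.1 in R 4.3.3 (lmFit, eBayes with trend), with Benjamini-Hochberg adjustment, two-sided, for genes that reached 1 FPKM in 2 or more samples. Depth used GENCODE M21, not M4, and a fragment length chosen from 6 tried as the one whose low values lay nearest whole fragments; 71.3% to 76.6% of them were within 0.1. Python 3.11.15, numpy 2.4.6, scipy 1.17.1 and matplotlib 3.10.9 were also used.

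The members and lists were chosen with earlier results of these data known. Named genes are the ligands, other Wnt ligands with a mean of at least 1 FPKM, and from each pathway list up to 5 called genes and the most abundant gene, except that of secreted antagonists and of response genes up to 2 called genes each are named. The rule also takes the 3 genes most like the most abundant ligand. Of the marker lists the most abundant gene is given, and of any list the gene that is most abundant in a single sample where it differs. Any other gene of the lists is marked as named after its values were seen. Alternatives were other filters, pseudocounts, scalings and variance models, the replicate number as a block, and each sample left out.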

Additional observations from a re-analysis of the deposited data

How the results depend on the processing

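The block, the filters and the variance model leave the difference of a ligand unchanged by construction and act on its SE and p-values alone. Of 63 adjusted p that the alternatives gave for the 9 ligands, 60 of them for the 6 tested ligands, 2 were under 0.05, both of *Wnt3*. With the replicate number as a block, 1202 genes, 15 pathway genes and 1 ligand were called, *Wnt3* (-1.28, limma, adjusted p = 0.00972, against 0.00972 to 0.245 over its 11 alternatives). Nothing in the labels says that equal numbers share a source, and the correlation of same-numbered deviations was 0.0348. Testing every gene above 0 gave 0 calls in all and 0 among pathway genes (limma, 18215 genes, 4059 and 29 at an unadjusted p under 0.05), with more genes tested. Against 427 calls, 226 of them lower, a mean of at least 5 FPKM gave 203 calls (108 lower), no trend 82 (27 lower) with 2 pathway genes, and median centring 283 (126 lower); the cause was not tested. With no trend and with median centring fewer genes were thus called lower than higher. The study's thresholds, a fold beyond 2 with p under 0.05, were added as an alternative after seeing the data. With limma's unadjusted p and the fold on log2(FPKM + 1) they called 1 ligand, *Wnt3*. Leaving out 1 sample gave 0 to 638 calls, 0 to 1 ligand and 0 to 11 pathway genes, with fewer samples in the fit. The difference then ranged from -0.54 to 0.058 for *Wnt4*, -2.21 to 0.081 for *Wnt5a*, -0.45 to 0.36 for *Wnt6* and -1.59 to -0.96 for *Wnt3*. As log2 ratios of mean FPKM with no pseudocount, *Wnt2b* was -2.19, *Wnt3a* -4.15 and *Wnt5a* -2.35. WT 1 alone kept the rank of 6 ligands and WT 2 alone of 7. Count-based tests were not run on these FPKM values. *Wnt3a* rested on about 8 and 3 fragments in the promoter KO samples, so the depth limits how well its level there is known.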
